A study of Mus musculus with 7 samples.

Results

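Tissue kallikreins are secreted serine proteases made as inactive precursors. In the outer layers of the epidermis they cut the proteins that hold corneocytes together, so that the surface is shed at a steady rate, and they can also cleave protease-activated receptors and precursors of cytokines and antimicrobial peptides. Spink5 encodes the inhibitor LEKTI, which restrains several of these proteases, and its loss in Netherton syndrome leads to premature shedding. The genes considered here were Klk6, Klk7, Klk8, Klk10, Klk11 and Spink5, taken by name through every probe set that the platform annotation assigns to that single gene. This gave 5 probe sets for 5 of the 6 genes, out of 22626 probe sets tested, with 1 probe set for each kallikrein. Spink5 was not analysed here.

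Messenger RNA had been measured in mouse primary keratinocytes, the cells that build the epidermis, 48 h after transient transfection with a small interfering RNA (siRNA). The Trp63 siRNA group, with oligonucleotides against the gene of the transcription factor p63, had 5 arrays (replicates 1, 2, 3, 4 and 7), and the control group, with a non-specific siRNA, had 2 (replicates 5 and 6). All samples shared the cell type and the transfection, and the labels give neither the strain or age of the mice, nor whether replicates came from separate cultures. A p-value therefore reflects the spread among these arrays alone, and that spread may be technical. The question the design addresses is how the messenger RNAs of these cells change when Trp63 is silenced.

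The 5 kallikrein genes lie in 1 cluster on mouse chromosome 7, in the RefSeq order Klk11, Klk10, Klk9, Klk8, Klk7, Klk6, all on the plus strand, and Klk9 was not analysed here. RefSeq promoter windows of build GRCm38.p6, from 250 bases before to 50 bases after a gene start, were found for all 5 genes, with 7 windows in all because Klk6 and Klk11 each have 2 starts. Windows of 3 genes are shown: Klk6 (the first of its 2 starts) and Klk7, which rose most, and Klk10, which varied least between arrays. Capitals mark CACCC boxes on either strand, a motif bound by KLF factors, and in Klk10 also a p53-family half-site.
Klk6, chr7:43824294-43824593, plus strand: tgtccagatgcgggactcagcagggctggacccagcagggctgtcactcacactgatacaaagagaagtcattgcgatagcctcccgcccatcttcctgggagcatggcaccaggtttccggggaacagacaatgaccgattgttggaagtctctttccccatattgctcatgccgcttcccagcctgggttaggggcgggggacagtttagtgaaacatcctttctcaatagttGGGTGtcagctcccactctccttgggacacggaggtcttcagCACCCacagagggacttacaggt
Klk7, chr7:43811044-43811343, plus strand: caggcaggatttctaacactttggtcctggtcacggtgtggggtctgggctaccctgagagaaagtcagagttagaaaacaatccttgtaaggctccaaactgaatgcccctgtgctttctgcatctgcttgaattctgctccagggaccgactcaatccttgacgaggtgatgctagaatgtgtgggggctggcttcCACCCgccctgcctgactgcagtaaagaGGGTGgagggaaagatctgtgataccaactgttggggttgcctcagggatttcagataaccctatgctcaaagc
Klk10, chr7:43780804-43781103, plus strand: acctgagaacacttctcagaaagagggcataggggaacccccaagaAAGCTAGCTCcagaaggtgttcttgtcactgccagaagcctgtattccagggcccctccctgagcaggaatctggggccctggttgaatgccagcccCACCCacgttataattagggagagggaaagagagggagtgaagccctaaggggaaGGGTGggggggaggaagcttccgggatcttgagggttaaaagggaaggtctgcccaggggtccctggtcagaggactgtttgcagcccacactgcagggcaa

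A p53-family half-site, searched by its 10-letter consensus on both strands, was present in 1 of the 7 windows, as AAGCTAGCTC at positions -204 to -195 from the Klk10 start, and in 8.36% of 32851 windows of all genes. The CACCC box was in 4 of the 7 windows and in 57.5% of all windows. No window of these genes held the AP-1 motif TGANTCA (7.81% of all windows), the box TATAAA (13.6%), the paired core of the p53-family site (7.22%) or the GRHL motif AACCNGTT (2.09%), each searched on both strands. In the 7 windows no match overlapped a match of another motif. Such matches describe letters in these windows and are not measured binding sites.

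All 5 kallikrein genes rose when Trp63 was silenced. The rises ran from 1.5-fold for Klk11 to 3.73-fold for Klk6, and in each gene all 5 silenced arrays lay above both controls. Over all 12393 genes, 8.03% were called higher by limma at an adjusted p of 0.05, and 14.3% had all 5 silenced arrays above both controls. The median log2 difference was 1.03 over the 5 genes and -0.04 over all genes. In bulk RNA, a change in the number of cells that make a transcript and a change in the RNA made by each cell cannot be told apart.

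Trp63 itself, read as a check of the labels, was 541, 519, 457, 504 and 492 in the silenced arrays against 1447 and 1683 in the controls at its brightest probe set.

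Klk6 encodes a trypsin-like protease also known as neurosin, which is made in skin and brain. Its intensity was 5252, 4775, 2991, 3683 and 3579 in silenced replicates 1, 2, 3, 4 and 7, against 1709 and 648 in control replicates 5 and 6. The lowest silenced array was thus above the higher control, but the controls differed from each other 2.64-fold. The log2 difference was 1.90 (SE 0.33, 95% interval 1.16 to 2.64, limma adjusted p = 0.0047), a 3.73-fold rise. Only 18 of the 12393 genes had a larger rise.

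Klk7 encodes the chymotrypsin-like enzyme of the stratum corneum, which degrades corneodesmosin. It read 9353, 9753, 8561, 8951 and 8906 in the silenced arrays, against 4719 and 2107 in control replicates 5 and 6. The silenced arrays were close to each other, within 0.19 on the log2 scale, whereas the controls were 2.24-fold apart. Klk7 rose 2.87-fold (log2 difference 1.52, SE 0.23, 95% interval 0.999 to 2.05, limma adjusted p = 0.0025).

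Klk8, or neuropsin, is a trypsin-like protease of the upper epidermis that is also known from the hippocampus. Its values were 5803, 5470, 5221, 5516 and 5495 with Trp63 siRNA and 3042 and 2351 with control siRNA. The silenced arrays were within 0.15 on the log2 scale, and the controls were 1.29-fold apart. The rise was 2.05-fold (log2 difference 1.03, SE 0.085, 95% interval 0.84 to 1.23, limma adjusted p = 8.77e-05).

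Klk10, first described as a normal epithelial cell-specific gene, read 5159, 5524, 5168, 4988 and 5011 in the silenced arrays and 2786 and 2711 in the controls. It had the smallest standard error of the 5 genes. Klk10 rose 1.87-fold (log2 difference 0.91, SE 0.047, 95% interval 0.80 to 1.01, limma adjusted p = 8.53e-06).

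Klk11 encodes a trypsin-like protease also called hippostasin. It read 443, 418, 530, 524 and 515 in silenced replicates 1, 2, 3, 4 and 7, against 301 and 336 in the controls. Replicates 1 and 2, the highest pair for Klk6, were the lowest pair here. Klk11 rose 1.5-fold (log2 difference 0.58, SE 0.11, 95% interval 0.34 to 0.82, limma adjusted p = 0.00635). Its call ended without control replicate 5 (log2 difference 0.51, limma adjusted p = 0.0741, against 8.66e-06 to 0.418 over its alternatives), which left 4 of the 5 genes called, and was kept without any other single array.

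**Figure D1:**
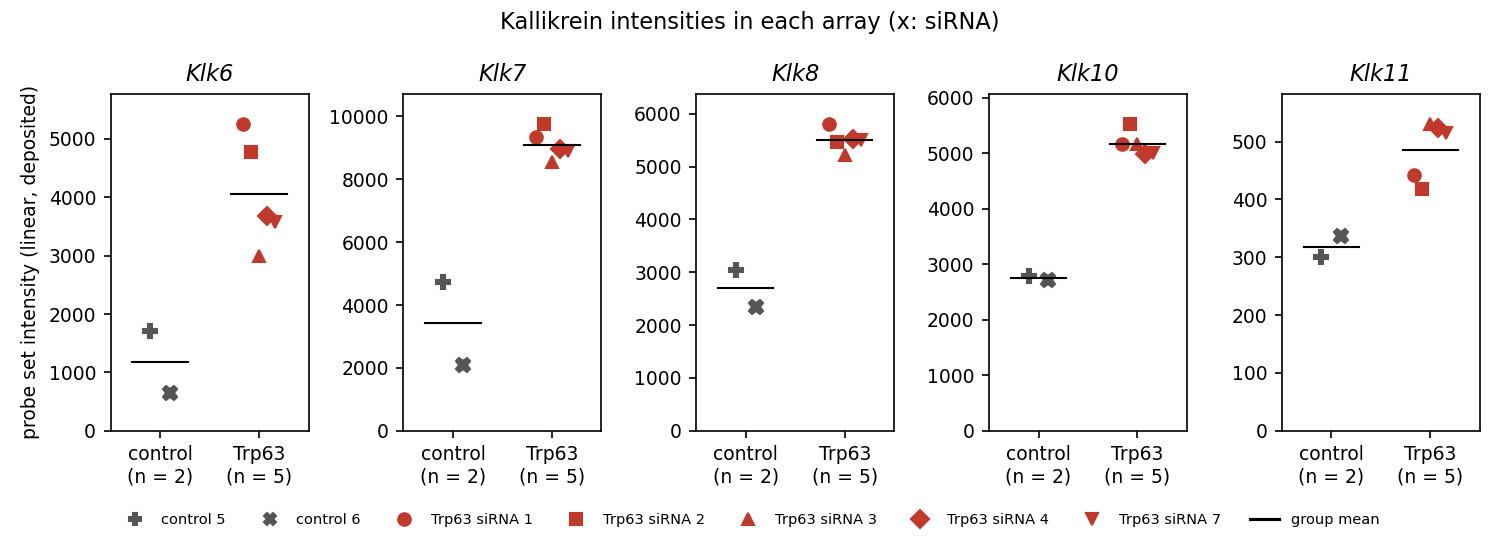
Deposited probe set intensity on a linear scale (y) of the 5 kallikrein genes in each array, by siRNA (x); symbols are single arrays and lines are group means. Every silenced array lies above both controls in each gene, and the controls are far apart for Klk6 (1709 and 648) and Klk7 (4719 and 2107) but not for Klk10 (2786 and 2711).

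The controls set how large the rises of Klk6 and Klk7 appear. Against control replicate 5 alone Klk6 was 2.31-fold higher and against control replicate 6 alone 6.01-fold higher. The corresponding values for Klk7 were 1.92-fold and 4.29-fold. For the other 3 genes the choice of control moved the fold by less: Klk8 was 1.80-fold and 2.33-fold higher, Klk10 1.85-fold and 1.90-fold, and Klk11 1.58-fold and 1.42-fold. The gap between the controls was larger than that of 99.98% of all 12393 genes for Klk6, 99.97% for Klk7 and 97.4% for Klk8, but of 27.8% for Klk10 and 78.7% for Klk11.

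The order of the rises was Klk6, Klk7, Klk8, Klk10 and Klk11. The intervals of Klk6 and Klk7 overlapped, as did those of Klk7 and Klk8 and those of Klk8 and Klk10. Differences between genes were not tested, and the intervals share the same arrays, so their overlap or lack of it does not decide the order. Klk10 and Klk11 had intervals that met only between 0.80 and 0.82. The interval of Klk11 ended at 0.82, below the start of that of Klk6 at 1.16, of Klk7 at 0.999 and of Klk8 at 0.84. Against control replicate 5 alone, Klk10 (log2 difference 0.89) came before Klk8 (0.85), and against control replicate 6 alone the order was that of the full comparison.

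**Figure D2:**
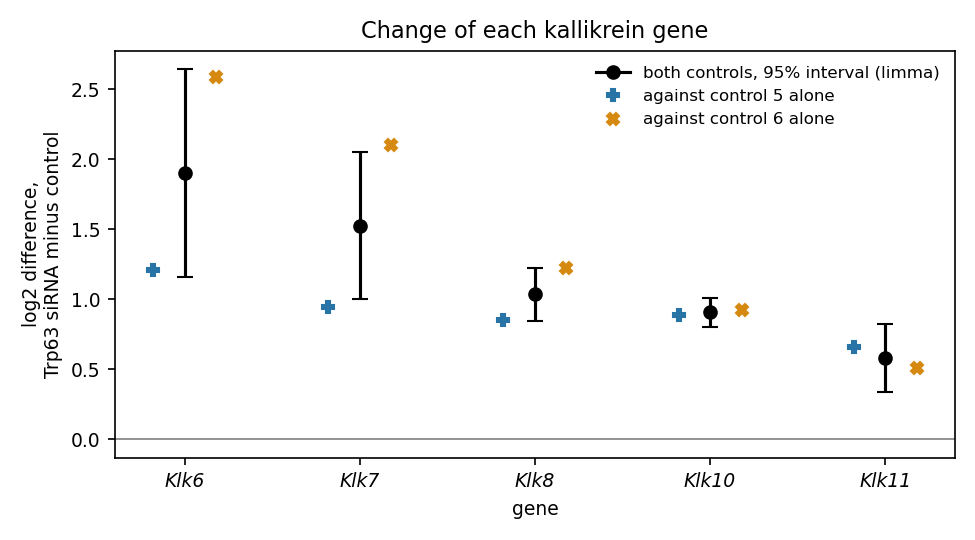
Log2 difference, Trp63 siRNA minus control siRNA (y), of each kallikrein gene (x): black points with the 95% interval of limma use both controls, and coloured symbols use the mean of the silenced arrays against 1 control. Klk6 moves from 1.21 to 2.59 with the choice of control, while Klk10 stays between 0.89 and 0.93.

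The order of the rises also followed the order of the genes on the chromosome, a pattern noticed after the values were seen. From Klk11 through Klk10, Klk8 and Klk7 to Klk6 the log2 difference went 0.58, 0.91, 1.03, 1.52 and 1.90. The difference between the controls (replicate 5 minus replicate 6) went the same way along the cluster, at -0.15, 0.04, 0.37, 1.16 and 1.38 on the log2 scale. Both sequences use the same 2 control arrays, so the second is not separate evidence for the first. Against control replicate 5 alone, the sequence along the cluster was 0.66, 0.89, 0.85, 0.94 and 1.21.

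The measured genes on either side of these 5 did not pass the test. Of the protein-coding genes within 20 places of Klk11 on one side and of Klk6 on the other, 16 others were measured. Limma called 0 of them, and over all 12393 genes 8.03% were called higher and 8.56% lower. At an unadjusted limma p under 0.05 there was 1, against 3934 of all genes, and the median log2 difference was -0.07. The 11 measured after Klk6 were Klk4, Klk1, genes of the Klk1b group and 2410002F23Rik, so most neighbours were themselves kallikreins. The 5 measured before Klk11 held no kallikrein. Ctu1, a transfer RNA thiolation gene and the nearest measured gene before Klk11, differed by -0.14 (95% interval -0.30 to 0.02, limma adjusted p = 0.227). Klk4, the enamel matrix protease and the nearest measured gene after Klk6, differed by 0.10 (95% interval -0.01 to 0.21, limma adjusted p = 0.194). It was dim, at 91.8 to 105 against 85.4 and 88.9, as were the measured Klk1b genes other than Klk1b21. A change in these neighbours could be hidden by background, so their missing calls do not mark where the rises end. Klk5, the trypsin-like protease that activates other epidermal kallikreins, lies between Klk6 and Klk4 and was not analysed here, nor were Klk12, Klk13, Klk14 and Klk15.

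**Figure D3:**
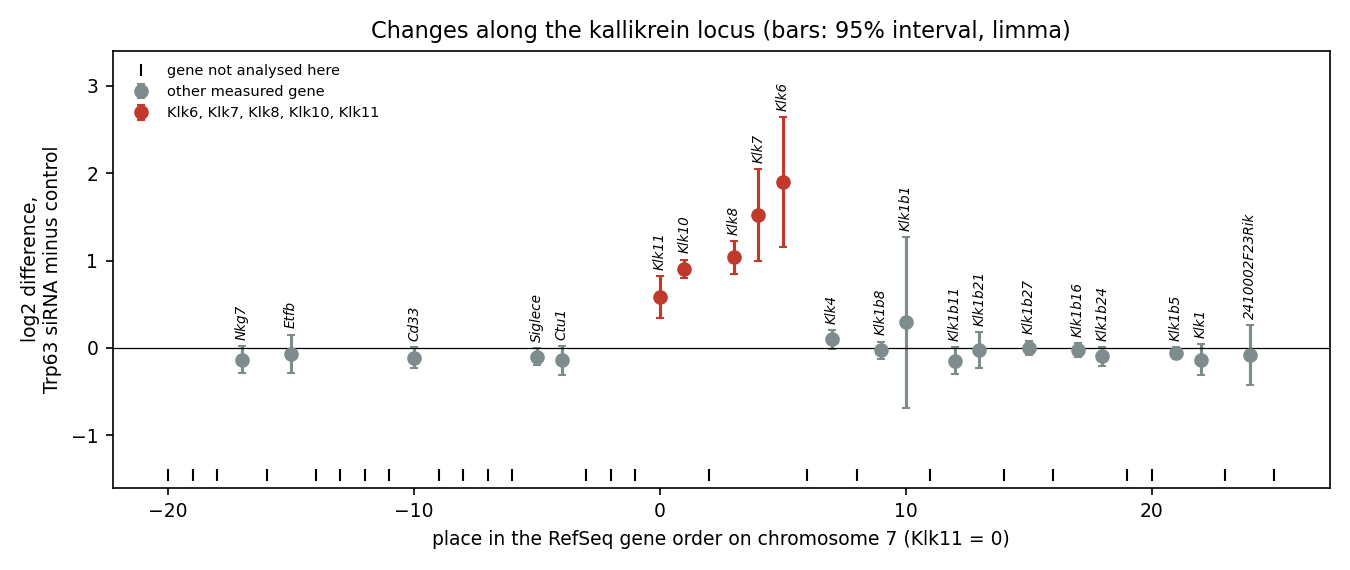
Log2 difference, Trp63 siRNA minus control siRNA, with the 95% interval of limma (y), of measured genes by their place in the RefSeq gene order on chromosome 7, where Klk11 is 0 (x); ticks at the bottom are genes not analysed here. The differences of the 5 kallikreins run from 0.58 to 1.90 and none of the 16 other measured genes, most of them also kallikreins, passed the test. Klk4 and the Klk1b genes other than Klk1b21 were dim, so that a change in them could be hidden by background.

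The other kallikreins belong mostly to the glandular Klk1 group, which is known from salivary gland and kidney. None of 11 measured genes passed the test in limma, against 8.03% of all 12393 genes called higher and 8.56% lower. At an unadjusted limma p under 0.05 there were 0, against 3934 of all genes. Their median log2 difference was -0.03. Klk1 itself, true tissue kallikrein, read 197 to 234 in the silenced arrays and 233 and 237 in the controls at its brightest probe set (log2 difference -0.13, limma adjusted p = 0.277). Klk1b21 read 375 to 468 against 438 and 432 (-0.03, limma adjusted p = 0.881). Klkb1, the gene of plasma kallikrein, which is no close relative of the tissue enzymes, read 85.8 to 93.6 against 97.4 and 91.7 (-0.06, limma adjusted p = 0.313). Klk4, Klk1b1, Klk1b5, Klk1b8, Klk1b11, Klk1b16, Klk1b24 and Klk1b27 had control means of at most 191, below the array medians of 207 to 214, so that a change in them could be hidden by background. Members of the Klk1b group are close copies of each other, and their probe sets may share signal.

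A list of related genes by role held the other 11 kallikreins, other proteases, inhibitors, desmosomal and envelope proteins, and receptors and soluble substrates. Not all of them act in desquamation: the list includes the glandular and plasma kallikreins, mast cell proteases and substrates known from the nervous system. Of its 77 measured members, 15 rose (19.5%), 11 fell (14.3%) and 51 missed the threshold. The shares over all genes were 8.03% and 8.56%. The median log2 difference was -0.02, against -0.04 over all genes. The count that fell was 17 without silenced replicate 1 and 8 without silenced replicate 4 or either control.

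Other proteases held most of the rises. Of 23 measured, 8 rose, 3 fell and 12 missed the threshold, and the median was 0.20. The 3 that fell were Ctsc (log2 difference -0.37), Cma1 (-0.23) and Plg (-0.18), with Cma1 and Plg dim. Among those that rose, Tmprss11d was dim, at 91.2 to 102 against 83.7 and 74.7. Bace1 missed the threshold at its brightest probe set (0.20), but its dimmer probe sets rose 1.16-fold, 2.23-fold and 2.79-fold. Prss22, a tryptase-like serine protease of epithelia, rose 3.75-fold (1095 ± 291, SD, n = 5, against 275 ± 57.9, SD, n = 2, limma adjusted p = 0.000701). Prss8, or prostasin, the membrane-anchored protease that acts with matriptase, rose 2.22-fold (440 ± 87.0 against 187 ± 27.7, limma adjusted p = 0.0021), while St14, the gene of matriptase, differed by 0.01 (SE 0.089, limma adjusted p = 0.959). The lysosomal cathepsin gene Ctsh rose 2.22-fold (4863 ± 154 against 2190 ± 293, limma adjusted p = 1.73e-05). Ctsl rose 1.25-fold and Ctsd, an aspartic protease that also acts in the stratum corneum, 1.32-fold (limma adjusted p = 0.00106 and 0.00201).

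Inhibitors moved in both directions. Of 18 measured, 3 rose, 2 fell and 13 missed the threshold, and the median was -0.04. Spint1 and Spint2, the Kunitz-type inhibitors of matriptase and prostasin, rose 1.31-fold and 1.38-fold (limma adjusted p = 0.00561 and 0.000207), and Spint1 lost its call without control replicate 5, with 1 control left and a log2 difference of 0.35 against 0.39 with both. Wfdc2, a secreted protein with whey acidic protein domains, rose 2.0-fold (326 ± 89.1 against 150 ± 1.72, limma adjusted p = 0.0184), a call that ended without either control although the log2 difference was 0.99 without replicate 5 and 1.01 without replicate 6, against 0.999 with both. Stfa3, a cystatin that inhibits cysteine proteases, fell 1.96-fold (3927 ± 363 against 7689 ± 347, limma adjusted p = 0.000112). Serpinb5, the clade B serpin maspin, fell 1.35-fold at its brightest probe set (limma adjusted p = 0.000235). Its other probe sets fell 1.80-fold and 1.95-fold (limma adjusted p = 0.000798 and 0.00033). Of the relatives of Spink5, Spink1 and Spink4 were measured. They had control means of 104 and 129 and differed by -0.05 and -0.04 (limma adjusted p = 0.418 and 0.691).

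Genes of desmosomes and the cornified envelope moved in both directions, and the list was not limited to proteins that kallikreins cut. Of 13 measured, 2 rose, 4 fell and 7 missed the threshold, and the median was -0.14. The desmosomal cadherin genes Dsg1a, Dsg1b, Dsg3 and Dsg4 were not analysed here. Cdsn, which encodes corneodesmosin, read 1001 to 1725 in the silenced arrays and 1256 and 819 in the controls, so that the groups overlapped (log2 difference 0.48, SE 0.21, limma adjusted p = 0.163). The desmosomal cadherin Dsc1 differed by 0.11 (SE 0.19, limma adjusted p = 0.726). Pkp2, a plakophilin of simple epithelia, rose 1.82-fold, and Flg, the filaggrin gene, 1.98-fold (limma adjusted p = 5.9e-05 and 0.000554). Dsp, the desmoplakin gene, fell 1.31-fold at its brightest probe set and Perp 1.24-fold (limma adjusted p = 0.0011 and 0.000731). Other Dsp probe sets were lower by 1.52-fold (limma adjusted p = 0.000363) and by 1.21-fold, the latter not called and with overlapping groups (limma adjusted p = 0.219). Hrnr, which encodes hornerin, fell 2.03-fold, but its values were dim (101 ± 13.6 against 227 ± 77.6).

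Of 12 measured receptors and soluble substrates, 2 rose, 2 fell and 8 did not pass. F2r, the thrombin receptor of the protease-activated family, rose 1.76-fold (1140 ± 117 against 639 ± 35.9, limma adjusted p = 0.000936). F2rl1, the receptor most often linked to epidermal kallikreins, was not analysed here. Il1a rose 3.47-fold, whereas Il18, whose product is also stored as a precursor, fell 2.17-fold (limma adjusted p = 0.000648 and 0.00151). Mbp, myelin basic protein, a test substrate of Klk6, fell 1.30-fold (limma adjusted p = 0.0102) and lost its call without control replicate 6, with 1 control left and a log2 difference of -0.31 against -0.38 with both. Tslp, an epidermal cytokine that rises when LEKTI is lost, read 4013 to 7977 against 6373 and 7671 and was not called (log2 difference -0.11, SE 0.24, limma adjusted p = 0.785).

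**Figure D4:**
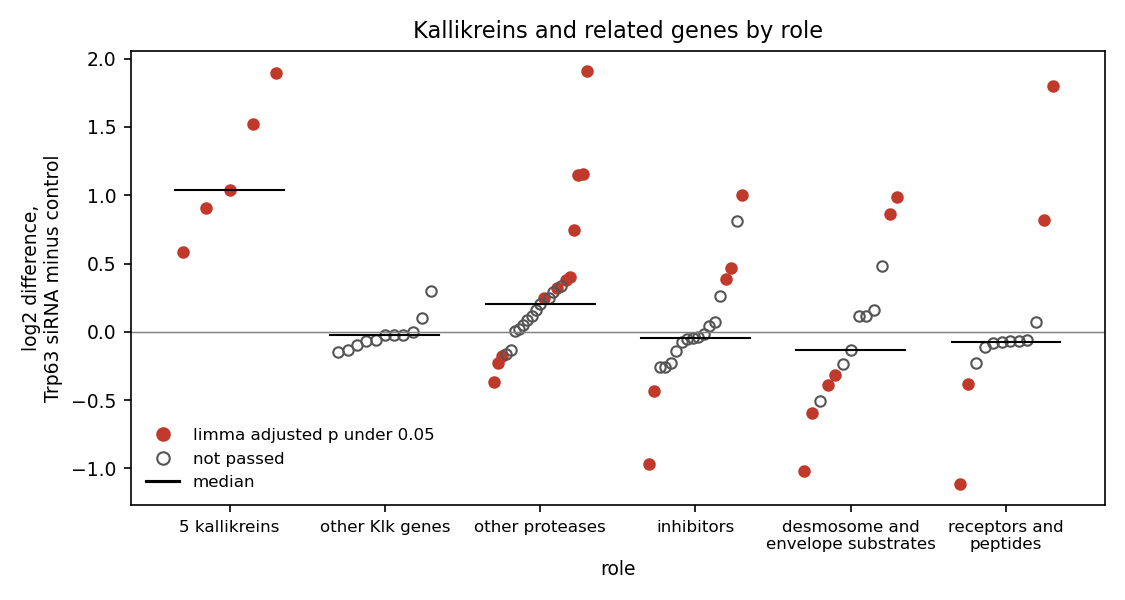
Log2 difference, Trp63 siRNA minus control siRNA (y), of each measured gene by its role (x): filled points had a limma adjusted p under 0.05, open points did not, and lines are medians. The 5 kallikreins have a median of 1.03, other proteases 0.20, and the other 4 groups between -0.14 and -0.03.

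The kallikreins and Spink5 are normally expressed in the granular layer. Of 14 measured genes of that layer, 7 rose (50%), 3 fell (21.4%) and 4 missed the threshold, against 8.03% and 8.56% of all genes. The median was 0.45. Those that fell were Ivl, 2.81-fold (limma adjusted p = 0.000773), Hrnr, 2.03-fold, and Tgm3, 1.25-fold. Control replicate 5 was higher than replicate 6 in 13 of the 14 granular-layer genes, against 7275 of all 12393 genes. The median gap was 0.59 on the log2 scale, against 0.02 over all genes. Other sets shared this: replicate 5 was higher in 9 of 9 melanocyte markers (median gap 0.40), 8 of 9 fibroblast and 5 of 5 mast cell markers. It was higher in 4 of 9 keratinocyte markers. Klk6, Klk7, Klk8 and, slightly, Klk10 were higher in replicate 5 too, and Klk11 was lower. With only these controls, such a shared direction says little. The part of the level of granular-layer genes in the rises of the kallikreins was not tested.

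The genes whose levels most resembled each kallikrein over the 7 arrays were sought among 6891 genes of at least median level. These are descriptions over 7 arrays in 2 groups, and between 127 and 345 genes had a Pearson r above 0.95 with any 1 of the kallikreins. Klk6 was closest to Asprv1, the gene of the filaggrin-processing protease SASPase (r = 0.998), followed by Myo5b (0.995) and Trex2 (0.994). Klk7 was closest to Elob (0.997), Gdpd1 (0.996) and Zfand5 (0.991), and Klk8 to Prxl2b (0.997), Tnfaip2 (0.997) and Anxa9 (0.996). Klk10 was closest to Msln (0.998), Vcl (0.997) and Atp6v0a2 (0.996), and Klk11 to Irs1, Acer2 and Slc6a6 (0.996 each). No gene appeared in the lists of 2 kallikreins. Asprv1, like Klk6, was higher in control replicate 5 (6348) than in replicate 6 (4272), whereas Irs1, like Klk11, was lower (275 and 347). Both genes were chosen by correlation over the same 7 arrays, controls included, so this likeness is no separate observation.

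Array medians lay between 207 and 214, and the number of arrays limits the precision of every value. Of 9 measured keratinocyte markers, 8 fell, Trp63 itself among them, and 1 rose (Lor). Krt1 fell 3.47-fold, Krt10 2.88-fold, Itgb4 2.09-fold, Itga6 1.86-fold, Krt5 1.25-fold and Krt14 1.15-fold, and Krt14 and Krt5 read at least 14410 and 10840 in every array. In the controls Krt14 read 16960 and 17170, the highest intensities of those arrays. Whether the top of the scale made its fall too small was not tested. Of 9 measured melanocyte markers none passed, but their summed intensity ranged from 7003 to 12180 in the silenced arrays and was 6839 and 10250 in the controls, with silenced replicates 1 and 2 and control replicate 5 high. Klk6 was also highest in these arrays within each group. Within these 3 arrays its log2 difference was 1.54 and within the other 4 it was 2.36, and the values for Klk7 were 1.01 and 2.06. Each of these sets holds 1 control, so the contrast between them includes the gap between the controls. The part of melanocyte content in the rises was not tested. Summed intensities of 9 fibroblast markers (1687 to 1909 against 1392 and 1615, 2 higher), 9 immune markers (1530 to 1742 against 1582 and 1673, 1 higher and 1 lower), 5 mast cell markers (647 to 734 against 691 and 755, 1 lower), 4 endothelial markers (403 to 419 against 420 and 462, none called) and 2 sebaceous markers (268 to 309 against 254 and 264, 1 higher) were low. Of 4 simple epithelium markers 3 rose, with sums of 4681 to 5324 against 1029 and 1383, and their part in the rises of the kallikreins was not tested. No marker was at 0. The ratio of 3' to 5' control probe sets, a measure of RNA integrity, was 1.14 to 1.25 in silenced arrays and 1.30 and 1.35 in controls for beta-actin, and 0.905 to 0.938 and 0.980 and 0.983 for Gapdh. The groups did not overlap in either ratio, and the part of RNA integrity in the rises of the kallikreins was not tested.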

How the data were processed

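Total RNA had been hybridised to Affymetrix arrays as biotinylated RNA, per the labels' protocols. The deposited table held 1 linear intensity per probe set and array; the authors' summarisation and normalisation are not given in the sources used here. No detection calls were used. After 64 control probe sets were set aside, 22626 were tested, of which 20380 had 1 gene symbol, 691 several and 1555 none. For each of 12393 genes the probe set of highest mean level stood for the gene.

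Values became log2(intensity + 16); differences and folds refer to this scale, on which changes of dim genes come out too small. Groups were compared with limma 3.58.1 in R 4.3.3 (lmFit, then eBayes with trend = TRUE). P-values were adjusted over the whole table by Benjamini-Hochberg, and the threshold was 0.05. Every adjusted p is limma's from that fit unless a setting is named. Intervals are 95% and not adjusted for the number of genes. Data were also simulated for 22626 probe sets, with independent normal noise for each and few true changes. There, 39 of 50 changes of 0.5, 97 of 100 of 1 and 49 of 50 of 2 were recovered, with 13 false calls. The real arrays had 3618 called probe sets and control differences shared by sets of genes, so these figures need not hold for them.

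The members and the lists by role were chosen with earlier results of these data known. Named were all members, all other measured kallikreins, and up to 5 called genes per role with the smallest p, with the 3 genes of most similar pattern for each called member. St14, Ctsc, Cma1, Plg, Tmprss11d, Bace1, Cdsn, Dsc1, Spink1, Spink4, Tslp, Ivl and Tgm3 were named after their values were seen. So were the neighbouring genes Ctu1 and 2410002F23Rik. Promoters came from RefSeq (GRCm38.p6). Alternatives were 2 other pseudocounts, quantile normalisation, a filter on dim probe sets, no variance trend, array weights, leaving out each array, another rule for a gene's probe set, and splits of the arrays by bacterial spike level and by melanocyte marker level. Figures used matplotlib 3.10.9 in Python 3.11.15.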

Additional observations from a re-analysis of the deposited data

Results flagged for a closer look

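The outermost of the 5 silenced arrays stood apart from the other 4 in 3 of 36 genes tested for this, and chance alone does so in about 1 of 20. For Klk4, silenced replicate 1 read 105 and the other 4 read 91.8 to 92.8 (gap 0.918 of the range). For Klk1b1, silenced replicate 3 read 282 and the other 4 read 71.2 to 77.4 (0.945). For Ctsh, silenced replicate 3 read 4595 and the other 4 read 4873 to 4959 (0.772). None of the 5 kallikrein genes that rose was in this set.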

How the results depend on the processing

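No paired analysis was possible because the groups share no replicate number. All 5 kallikreins kept their direction under every alternative. Leaving out 1 array at a time, the log2 difference ran from 1.21 to 2.59 for Klk6, from 0.94 to 2.10 for Klk7, from 0.85 to 1.22 for Klk8, from 0.88 to 0.93 for Klk10 and from 0.51 to 0.66 for Klk11, with 4 to 5 of the 5 genes called higher; of the 77 related genes, 12 to 16 were then called higher and 8 to 17 lower. Within the 3 arrays of low spike level, which include 1 control, no probe set of the whole table was called, so 0 kallikreins and 0 related genes (0 lower) were called there; the differences were 1.35 (Klk6), 0.95 (Klk7), 0.89 (Klk8), 0.86 (Klk10) and 0.65 (Klk11). Each of the 4 sets of arrays holds 1 control, so a threshold missed or passed within one says little. Klk11 missed it in the high spike set (0.51) and the high melanocyte set (0.495), with a difference near that of the full comparison (0.58). The count of related genes called lower was 17 with array weights and 19 with a block for the melanocyte split, and that called higher was 25 within the arrays of low melanocyte level. The causes of the other shifts were not tested. Over the whole table, calls ran from 776 to 2326 higher and from 598 to 3176 lower when 1 array was left out.

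Some uncalled kallikreins changed sign around 0. Klk1b27, at 0.00, was 0.019 after quantile normalisation, 0.002 with array weights and within the arrays of high melanocyte level, 0.00 with the spike split as a block, 0.035 in the low spike set and between -0.021 and 0.021 when 1 array was left out. Klk1b8 was 0.004 after quantile normalisation and 0.013 within the arrays of high melanocyte level. Klk1b21 was 0.065 and 0.06 in the low spike set and the high melanocyte set, and ran from -0.057 to 0.02 when 1 array was left out. Klk1b1 was -0.097 and -0.109 in those sets and ran from -0.052 (without silenced replicate 3) to 0.391 when 1 array was left out.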
